A study of Mus musculus with 27 samples.

Results

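The aryl hydrocarbon receptor and genes that act with it or answer to it were followed in hepatocytes of 9 inbred mouse strains. The group held 7 of the 43346 genes in the deposited count table, chosen by gene symbol: the receptor Ahr, its partner Arnt, its repressor Ahrr, and the target genes Cyp1a1, Cyp1a2, Tiparp and Nqo1. Of these, 6 were among the 14482 genes with enough counts to be tested, and Ahrr was not. The clearest pattern was in CAST/EiJ, where Cyp1a1 was higher and Cyp1a2 lower than in each of the other 8 strains, while Ahr itself differed 2.39-fold between its highest and lowest strains.

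The receptor is a transcription factor of the bHLH-PAS family that waits in the cytoplasm in a complex with HSP90 chaperones. When it binds a flat aromatic ligand, such as a dioxin, a combustion product or certain breakdown products of tryptophan, it moves to the nucleus, pairs with ARNT and binds DNA at xenobiotic response elements, whose core letters are GCGTG. In liver it is best known for switching on Cyp1a1 and Cyp1a2, which encode cytochrome P450 enzymes that oxidise such ligands and many drugs. Mouse strains carry different Ahr alleles: C57BL/6J and A/J are known for receptors that bind ligand with high affinity, and DBA/2J and strain 129 animals for a receptor of low affinity.

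Each strain was represented by 3 libraries, 27 in all, made from polyA RNA of hepatocytes of female mice aged 12 weeks. Of the strains, 6 are laboratory strains (A/J, C57BL/6J, DBA/2J, NZO/HlLtJ, NOD/ShiLtJ and 129S1/SvImJ) and 3 are wild-derived (PWK/PhJ, CAST/EiJ and WSB/EiJ). The labels name no treatment, no ligand and no Ahr allele, so no induction by a ligand was compared, and the allele cannot be told apart from the rest of a strain's genome. The titles call the libraries biological replicates. The p-values set differences between strains against the spread between libraries of a strain, estimated jointly over all strains.

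Library totals ran from 17015932 to 35078483 counts, so 1 count was worth 0.0253 to 0.0516 CPM (a count scaled to the library's size, after trimmed-mean scaling). All 10 hepatocyte markers had counts in every library, with the lowest summed strain mean in CAST/EiJ (109100 CPM) and the highest in A/J (273500 CPM). Markers of 2 other liver cell types varied more: 10 Kupffer cell genes summed to strain means of 57.3 CPM (129S1/SvImJ) to 236 CPM (C57BL/6J), and 10 endothelial genes to 81.6 CPM (NZO/HlLtJ) to 413 CPM (PWK/PhJ). The 8 lymphocyte markers summed to at most 1.61 CPM in any library. In bulk libraries such as these, fewer cells of a type and less RNA per cell cannot be told apart.

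The Cyp1a1 and Cyp1a2 genes lie back to back on chromosome 9, read in opposite directions from RefSeq starts 13958 bases apart. The 250 bases before each start are shown because this pair of neighbours differed in opposite directions between CAST/EiJ and the other strains. They come from RefSeq on GRCm38.p6, in the direction of each gene: chr9:57697363-57697612 on the plus strand for Cyp1a1 and chr9:57683656-57683905 on the minus strand for Cyp1a2. Capitals mark the core GCGTG, which was searched on both strands.
Cyp1a1: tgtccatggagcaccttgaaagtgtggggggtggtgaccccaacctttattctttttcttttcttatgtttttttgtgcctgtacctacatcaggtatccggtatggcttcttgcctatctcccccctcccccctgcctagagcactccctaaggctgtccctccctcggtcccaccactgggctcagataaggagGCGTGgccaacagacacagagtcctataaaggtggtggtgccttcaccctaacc
Cyp1a2: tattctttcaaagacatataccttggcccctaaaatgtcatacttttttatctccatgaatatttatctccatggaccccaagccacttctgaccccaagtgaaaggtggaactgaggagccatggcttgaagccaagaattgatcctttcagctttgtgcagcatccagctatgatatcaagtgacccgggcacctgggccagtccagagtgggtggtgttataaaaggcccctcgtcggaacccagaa
The Cyp1a1 window holds 1 core, which ends 50 bases before the start, and these letters are not in the Cyp1a2 window. Of the 6 genes of the group with an entry in the table, 4 held the core: 3 times in Ahrr, and 1 time each in Cyp1a1, Arnt and Tiparp. Among 32851 windows of this length, 28.2% held it and 2.77% held it at least 3 times. The longer form TNGCGTG was in 4.1% of the windows and, within the group, in that of Ahrr. These sequences are of the reference strain, and a match is a description of the letters only.

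Across the 9 strains, 5 of the 6 tested genes passed edgeR's quasi-likelihood test for any difference between strains (Benjamini-Hochberg adjusted p below 0.05). This is read against a background of 74.2% of all tested genes, since these strains differ at most expressed genes. The adjusted p was 1.3e-10 for Cyp1a1, 3.36e-05 for Nqo1, 0.000157 for Ahr, 0.000476 for Cyp1a2 and 0.0475 for Tiparp, and 0.106 for Arnt, which did not pass. The sizes differed more than the calls. The log2 range between the highest and lowest strain was 3.43 for Cyp1a1, 1.51 for Cyp1a2, 1.23 for Ahr, 1.17 for Nqo1, 0.74 for Tiparp and 0.43 for Arnt, beside a median of 0.94 over all tested genes. Of all tested genes, 4.72% had a wider range than Cyp1a1.

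Levels of different genes were compared per kilobase of exon. Cyp1a2 stood far above the others, at a mean of 392.8 CPM per kb over the 27 libraries. Nqo1 followed at 6.92, Ahr at 3.78, Arnt at 2.70 and Tiparp at 1.02 CPM per kb. Cyp1a1 averaged 0.448 CPM per kb, most of it from the CAST/EiJ libraries, where its mean was 2.81 CPM per kb against 0.0959 to 0.274 in the other strains. Hepatocytes of every strain thus held far more transcript of Cyp1a2 than of Cyp1a1 per unit length.

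Ahr (ENSMUSG00000019256; GRCm38 chr12:35497974-35535038, minus strand) encodes the receptor. It was lowest in WSB/EiJ, with 13.9, 13.6 and 12.4 CPM in the 3 libraries. In CAST/EiJ, its highest strain, the libraries held 34.8, 30.3 and 30.2 CPM, and in C57BL/6J they held 30.0, 33.3 and 22.3 CPM. The WSB/EiJ libraries lay below every library of C57BL/6J and CAST/EiJ, by a wide margin. A/J came next to lowest, with 12.8, 17.1 and 19.5 CPM, and overlapped WSB/EiJ.

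The strain means of Ahr fell in the order CAST/EiJ (31.8 ± 2.60 CPM, SD, n = 3 here and below), NOD/ShiLtJ (29.6 ± 4.34), C57BL/6J (28.5 ± 5.65), 129S1/SvImJ (25.0 ± 5.08), PWK/PhJ (23.8 ± 6.79), NZO/HlLtJ (20.6 ± 2.54), DBA/2J (20.5 ± 4.19), A/J (16.5 ± 3.41) and WSB/EiJ (13.3 ± 0.789). No pair of neighbours in this order passed the test, and the libraries of every such pair overlapped. Of the 36 pairs of strains 14 passed, beside 23.4% of gene-by-pair tests over all genes, and 12 of the 14 set WSB/EiJ or A/J below another strain. The difference between CAST/EiJ and WSB/EiJ was 2.39-fold (adjusted p = 4.63e-05 by edgeR). The other 2 calls put CAST/EiJ above DBA/2J (adjusted p = 0.02) and above NZO/HlLtJ (adjusted p = 0.0236).

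Several of the smaller Ahr differences rested on few libraries. PWK/PhJ above A/J (adjusted p = 0.0473), where the libraries overlapped, lost its call in 18 of the 27 fits that left out 1 library, WSB/EiJ below DBA/2J (adjusted p = 0.0431) in 11, WSB/EiJ below NZO/HlLtJ (adjusted p = 0.0201) in 3, and the calls of CAST/EiJ above DBA/2J and NZO/HlLtJ in 2 each. The calls of WSB/EiJ below C57BL/6J, 129S1/SvImJ, NOD/ShiLtJ, CAST/EiJ and PWK/PhJ held in all 27.

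In WSB/EiJ, the strain with the least Ahr, 8 of 10 pericentral genes were lower than in C57BL/6J, beside 6.76% of all tested genes, and 7 of 10 periportal genes were higher, beside 6.88%. The 10 pericentral genes summed to 6139 to 6574 CPM there against 9638 to 10640 CPM in C57BL/6J, the highest strain. Strain means of that sum were close to the WSB/EiJ mean of 6325 CPM in DBA/2J (5998), PWK/PhJ (6121), CAST/EiJ (6528) and NZO/HlLtJ (6610), and A/J, next to lowest in Ahr, was at 9524 CPM. Most of the sum was Cyp2e1, at 5640 CPM in WSB/EiJ. The mean log2(CPM + 0.5) of the 10 genes was lowest in WSB/EiJ (5.24). It was 5.51 in PWK/PhJ, 5.77 in DBA/2J, 5.85 in A/J, 6.11 in CAST/EiJ and 6.26 in NZO/HlLtJ. The part of these zonation genes in the low Ahr level was not tested. With the Kupffer and endothelial marker levels as covariates, Ahr in WSB/EiJ was lower than in C57BL/6J (log2 -1.13, adjusted p = 0.0028). With the same covariates 4 Ahr calls were lost while their sizes hardly moved. WSB/EiJ minus DBA/2J was -0.61 on the log2 scale (adjusted p = 0.0548, -0.63 without covariates) and WSB/EiJ minus NZO/HlLtJ was -0.59 (adjusted p = 0.0551, -0.64 without). A/J minus 129S1/SvImJ was -0.58 (adjusted p = 0.2, -0.60 without) and PWK/PhJ minus A/J was 0.59 (adjusted p = 0.0923, 0.53 without). An exon of a predicted gene on the other strand overlaps Ahr by 127 bases, and the library kit named in the labels does not mark strand.

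**Figure D1:**
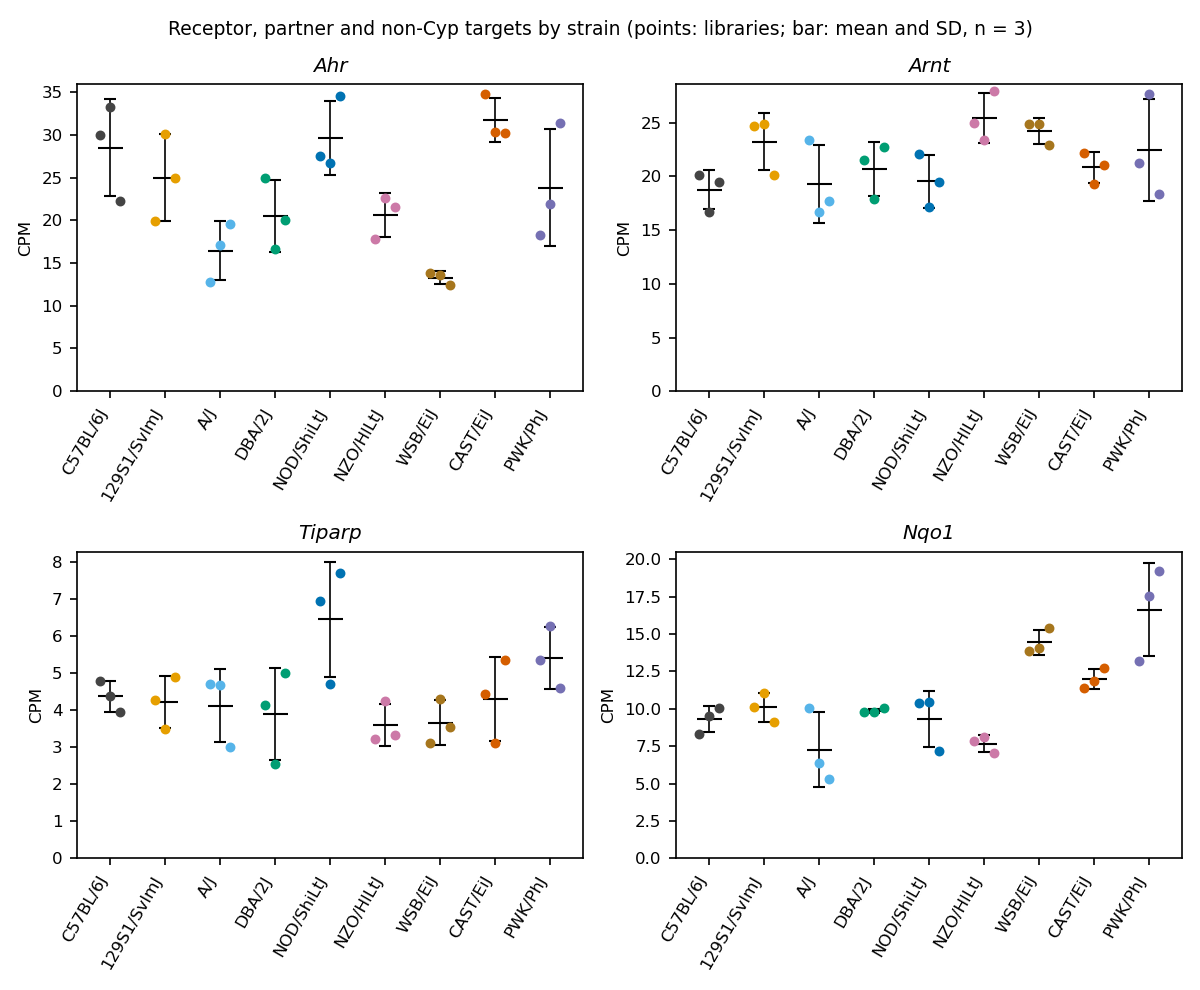
CPM (linear axes from 0) of Ahr, Arnt, Tiparp and Nqo1 in the 3 libraries of each strain; points are libraries, bars are the mean and SD. Ahr is lowest in WSB/EiJ (12.4 to 13.9 CPM), Nqo1 is highest in PWK/PhJ and WSB/EiJ (13.2 to 19.2 CPM), and Arnt varies least.

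Arnt (ENSMUSG00000015522; chr3:95434388-95497240, plus strand) encodes the partner that the receptor shares with the hypoxia factors. Its strain means spanned 1.36-fold, from 18.7 ± 1.83 CPM in C57BL/6J to 25.4 ± 2.31 CPM in NZO/HlLtJ. The NZO/HlLtJ libraries held 25.0, 23.4 and 27.9 CPM and the C57BL/6J libraries 20.1, 16.7 and 19.5 CPM. All NZO/HlLtJ libraries were above all C57BL/6J libraries, and in the order of strain means the libraries of every pair of neighbours overlapped. NZO/HlLtJ was higher than C57BL/6J (adjusted p = 0.0356) and than A/J (adjusted p = 0.0461), and no other pair passed. The call against A/J was lost in 15 of the 27 fits that left out 1 library and with the Kupffer and endothelial marker levels as covariates (adjusted p = 0.563). The call against C57BL/6J was lost with the Kupffer and endothelial marker levels as covariates (log2 0.12, adjusted p = 0.79), and NZO/HlLtJ had the lowest endothelial marker level. It was also lost without C57BL/6J replicate 2 (0.143) or replicate 4 (0.0761) and without NZO/HlLtJ replicate 1 (0.0737) or replicate 3 (0.118).

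Ahrr (ENSMUSG00000021575; chr13:74211118-74292331, minus strand) encodes the repressor that competes with the receptor for ARNT and is itself a target of the receptor. It was barely counted: 18 counts in the 27 libraries together, with 16 libraries at 0 and no library above 3 counts. All 3 libraries of NZO/HlLtJ and of CAST/EiJ were at 0. A count of 0 allows a level of up to 3 counts, which is 0.0759 to 0.155 CPM depending on the library, by counting error alone, so no difference between strains was detectable at this depth. That holds for CAST/EiJ too, where Cyp1a1 was high.

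Cyp1a1 (ENSMUSG00000032315; chr9:57687928-57703824, plus strand) encodes the P450 enzyme most often used as a readout of receptor activity. In CAST/EiJ the 3 libraries held 10.3, 8.03 and 5.16 CPM, from 348, 266 and 100 counts. The other 24 libraries held 0.0502 to 1.06 CPM, from 1 to 26 counts. Every CAST/EiJ library was above every other library, and 5.25% of all tested genes had such a gap above the rest in this strain.

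The CAST/EiJ mean was 7.83 ± 2.57 CPM. WSB/EiJ came next at 0.762 ± 0.321 CPM, then NOD/ShiLtJ at 0.594 ± 0.217, 129S1/SvImJ at 0.421 ± 0.124, C57BL/6J at 0.380 ± 0.0781, A/J at 0.362 ± 0.156, NZO/HlLtJ at 0.348 ± 0.138, PWK/PhJ at 0.274 ± 0.0724 and DBA/2J at 0.267 ± 0.208 CPM. The DBA/2J mean includes 1 library, replicate 3, with a single count. The step from CAST/EiJ to WSB/EiJ was the only one between neighbours that passed the test.

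CAST/EiJ exceeded the other strains 10.3-fold (WSB/EiJ, adjusted p = 2.64e-06) to 28.2-fold (PWK/PhJ, adjusted p = 3.57e-08) in edgeR's fitted values. A gene that was higher in CAST/EiJ than in each of the other 8 strains by this test was uncommon but not rare: 412 genes, or 2.84% of those tested. These 8 calls held under every alternative and with any 1 library left out, with adjusted p at most 0.000207. Among the other strains, only WSB/EiJ above PWK/PhJ passed (2.75-fold, adjusted p = 0.028). That call was lost without WSB/EiJ replicate 3 (0.0663) or replicate 4 (0.126) and without PWK/PhJ replicate 1 (0.054) or replicate 3 (0.101). It was also lost with the Kupffer and endothelial marker levels as covariates (0.112) and in a fit of the 6 libraries of both strains alone (0.071).

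Cyp1a2 (ENSMUSG00000032310; chr9:57676937-57683703, minus strand) encodes the P450 enzyme of its pair that liver makes constitutively, mostly near the central vein. It went the other way in CAST/EiJ, whose libraries held 505, 380 and 326 CPM. Libraries of the other strains held 496 to 1319 CPM. The CAST/EiJ libraries were the lowest of all but for replicate 1, which lay just above PWK/PhJ replicate 3, at 496 CPM.

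Strain means of Cyp1a2 ran from 1139 ± 190 CPM in NOD/ShiLtJ through 994 ± 223 in C57BL/6J, 981 ± 178 in DBA/2J, 828 ± 113 in 129S1/SvImJ, 735 ± 126 in WSB/EiJ, 693 ± 190 in PWK/PhJ, 687 ± 156 in A/J and 657 ± 119 in NZO/HlLtJ to 404 ± 91.5 in CAST/EiJ. Only the last step, NZO/HlLtJ to CAST/EiJ, passed between neighbours (adjusted p = 0.0291). CAST/EiJ was lower than each of the other 8 strains, by 1.63-fold (NZO/HlLtJ) to 2.82-fold (NOD/ShiLtJ, adjusted p = 3.52e-05), and 2.80% of tested genes were lower in CAST/EiJ than in each of the others. The other 3 called pairs put NOD/ShiLtJ above A/J, NZO/HlLtJ and PWK/PhJ, by 1.64-fold to 1.73-fold, and each of the 3 was lost in 4 of the 27 fits that left out 1 library.

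Of the CAST/EiJ calls, those against C57BL/6J, DBA/2J and NOD/ShiLtJ held throughout, with adjusted p at most 0.015. The call against A/J was lost without A/J replicate 3 (0.0803) or CAST/EiJ replicate 5 (0.0663), that against NZO/HlLtJ without NZO/HlLtJ replicate 3 (0.135), CAST/EiJ replicate 4 (0.0939) or replicate 5 (0.135), and that against PWK/PhJ without CAST/EiJ replicate 4 (0.0503), replicate 5 (0.0716) or PWK/PhJ replicate 1 (0.0962). With the Kupffer and endothelial marker levels as covariates the adjusted p was 0.109 against A/J and 0.353 against PWK/PhJ, and the other 6 calls of CAST/EiJ below another strain remained. With these covariates NOD/ShiLtJ minus A/J kept its size but not its call (log2 0.74, adjusted p = 0.0655, 0.73 without), and NZO/HlLtJ minus NOD/ShiLtJ was -0.57 (adjusted p = 0.18, -0.79 without).

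The 10 hepatocyte markers were also at their lowest in CAST/EiJ, summing to 100400 to 114000 CPM in its 3 libraries against at least 117800 CPM in every other library. The pericentral genes summed to 5617 to 7458 CPM in CAST/EiJ, inside the range over all libraries (4915 to 10640 CPM). Gene by gene, 4 of the 10 pericentral genes were lower in CAST/EiJ than in C57BL/6J (Cyp2e1, Lgr5, Slc1a2 and Rhbg), beside 19.7% of all tested genes, and 1 was higher (Oat), beside 18.4%, with a median of -0.63 on the log2 scale. Of the 10 periportal genes 5 were higher, with a median of 0.59. The part of these markers in the Cyp1a2 level was not tested. For Cyp1a1 and Cyp1a2 alike the counts were not whole in all 27 libraries before rounding, as counting methods give when reads are shared out between genes, and none of the sources used here states whether reads were aligned to each strain's own genome.

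**Figure D2:**
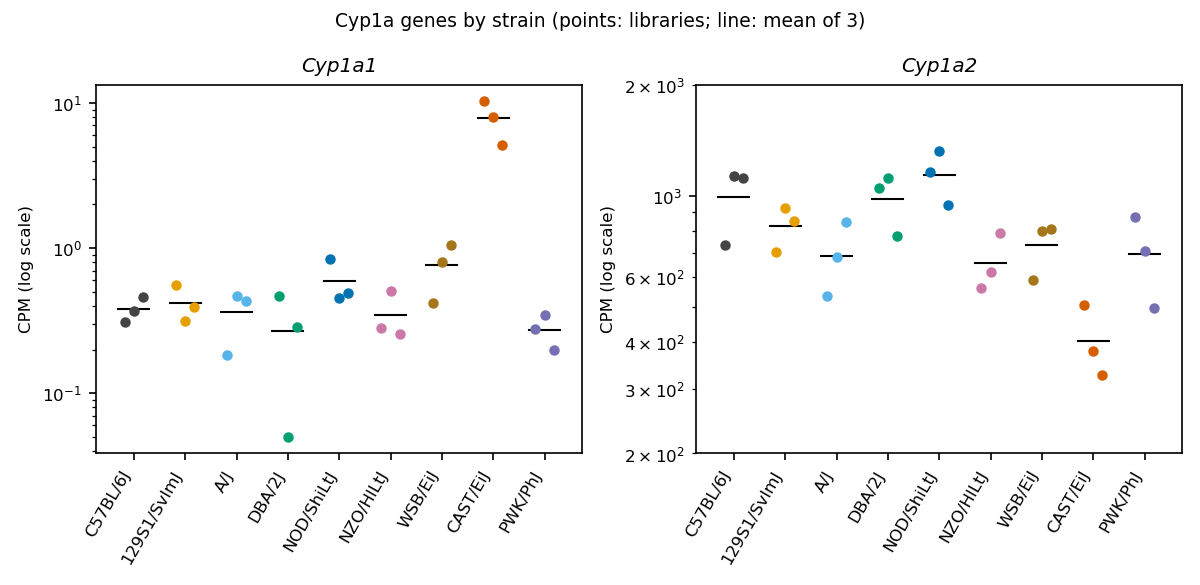
CPM (log axes) of Cyp1a1 and Cyp1a2 in the 3 libraries of each strain; points are libraries and lines are means. For Cyp1a1 the CAST/EiJ libraries (5.16 to 10.3 CPM) stand above all others (at most 1.06 CPM), and for Cyp1a2 they are the lowest group (326 to 505 CPM).

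Set against each other, the counts of this pair were almost all of Cyp1a2. Cyp1a1 made up 1.88% ± 0.28 of the Cyp1a1 and Cyp1a2 counts in CAST/EiJ (1.55% to 2.07% in single libraries). In WSB/EiJ it made up 0.101% ± 0.0293, and in the other 7 strains 0.0285% to 0.0547%. The shift in CAST/EiJ came from both sides, a higher Cyp1a1 and a lower Cyp1a2. Within CAST/EiJ the library with the most Cyp1a1 also had the most Cyp1a2 and the library with the least had the least, over 3 libraries.

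Across the 9 strain means the Pearson correlation of the pair on log2(CPM + 0.5) was -0.73, a description that rests on CAST/EiJ. Ahr and Cyp1a1 correlated at 0.41 and Ahr and Cyp1a2 at -0.01 over the same 9 means. CAST/EiJ had the highest mean of both Ahr and Cyp1a1. The part of the Ahr level in the Cyp1a1 level was not tested.

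**Figure D3:**
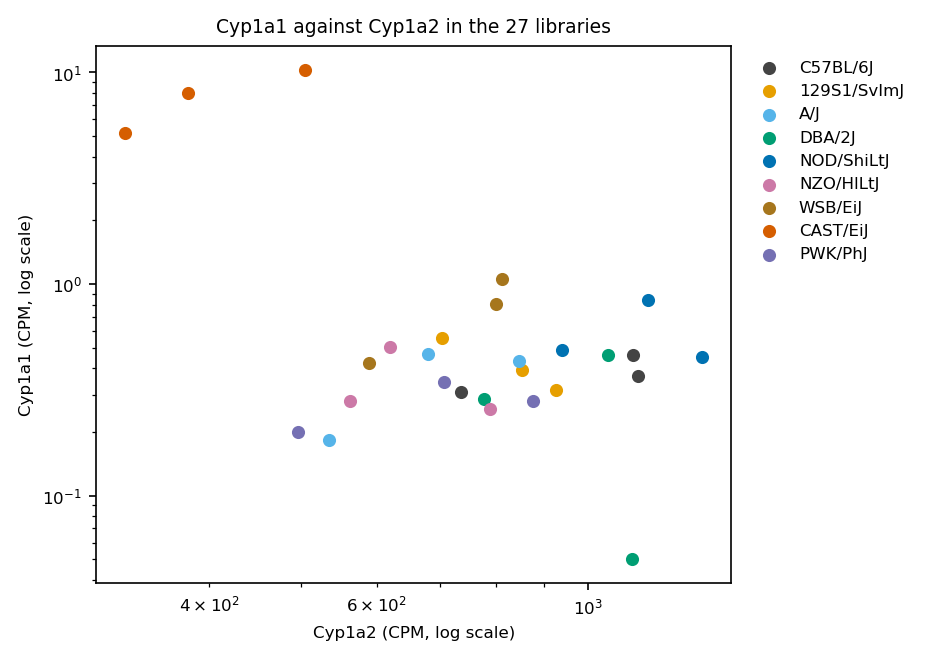
Cyp1a1 against Cyp1a2 in each of the 27 libraries (CPM, both axes log), coloured by strain. The 3 CAST/EiJ libraries form a group of their own at 326 to 505 CPM of Cyp1a2 and 5.16 to 10.3 CPM of Cyp1a1; the point at 0.0502 CPM is DBA/2J replicate 3.

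Tiparp (ENSMUSG00000034640; chr3:65528410-65555518, plus strand) encodes a mono-ADP-ribosyltransferase that the receptor induces and that limits the receptor in return. It was highest in NOD/ShiLtJ, with 6.95, 4.71 and 7.70 CPM, and lowest in NZO/HlLtJ, with 3.24, 4.25 and 3.34 CPM. The NOD/ShiLtJ libraries lay above all NZO/HlLtJ libraries, though NOD/ShiLtJ replicate 2 was inside the range of most other strains. In CAST/EiJ, with 4.43, 3.11 and 5.36 CPM, Tiparp was at the level of C57BL/6J (4.79, 4.39 and 3.95 CPM), and the difference between them was -0.04 on the log2 scale, with a 95% interval of -0.55 to 0.48.

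Strain means of Tiparp were 6.45 ± 1.55 CPM in NOD/ShiLtJ, 5.42 ± 0.840 in PWK/PhJ and 3.61 to 4.38 CPM in the other 7 strains. NOD/ShiLtJ was higher than NZO/HlLtJ (1.79-fold, adjusted p = 0.0275) and WSB/EiJ (1.76-fold, adjusted p = 0.0199), and no neighbours in the order differed. The strain effect on Tiparp was close to the threshold: its adjusted p rose above 0.05 in 15 of the 27 fits that left out 1 library, up to 0.201 without NOD/ShiLtJ replicate 3. Both pair calls were lost without NOD/ShiLtJ replicate 1 (0.0863 against NZO/HlLtJ, 0.0635 against WSB/EiJ) or replicate 3 (0.136 and 0.102), and also without replicate 1 (0.12) or 3 (0.0938) of NZO/HlLtJ or replicate 2 (0.0844) or 4 (0.0609) of WSB/EiJ. A transcript on the other strand overlaps 223 bases of its exons, and it had at most 10 counts in any library.

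Nqo1 (ENSMUSG00000003849; chr8:107388225-107403206, minus strand) encodes a quinone reductase that answers both to the receptor and to the oxidative stress factor NRF2. It was highest in the wild-derived strains. PWK/PhJ libraries held 13.2, 17.5 and 19.2 CPM, WSB/EiJ libraries 13.9, 14.1 and 15.4 CPM and CAST/EiJ libraries 11.4, 11.8 and 12.7 CPM. Every one of these 9 libraries was above every library of the other 6 strains, which held 5.33 to 11.1 CPM. This division of the strains was read off after the values were seen, and 25 of the tested genes (0.173%) showed the same gap.

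The means were 16.6 ± 3.12 CPM in PWK/PhJ, 14.5 ± 0.844 in WSB/EiJ and 12.0 ± 0.676 in CAST/EiJ, followed by 129S1/SvImJ (10.1 ± 0.973), DBA/2J (9.88 ± 0.143), NOD/ShiLtJ (9.34 ± 1.88), C57BL/6J (9.31 ± 0.878), NZO/HlLtJ (7.67 ± 0.572) and A/J (7.26 ± 2.51). Of the 36 pairs 15 passed, the most of any gene in the group, beside 23.4% of gene-by-pair tests over all genes, and in 14 of them a wild-derived strain was above a laboratory strain. PWK/PhJ and WSB/EiJ were each higher than all 6 laboratory strains, while CAST/EiJ was higher than A/J and NZO/HlLtJ. With the Kupffer and endothelial marker levels as covariates, CAST/EiJ above A/J lost its call (adjusted p = 0.0794). PWK/PhJ was also higher than CAST/EiJ (1.39-fold, adjusted p = 0.0443). No pair of neighbours in the order passed. The 6 calls of PWK/PhJ above a laboratory strain held in all 27 fits that left out 1 library, but its call above CAST/EiJ was lost in 17. Of the WSB/EiJ calls, that above DBA/2J was lost in 20 of these fits, that above 129S1/SvImJ in 6 and that above NOD/ShiLtJ in 2.

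PWK/PhJ had the highest endothelial marker level, 219 to 753 CPM in its 3 libraries. With the Kupffer and endothelial marker levels as covariates, Nqo1 was still higher in PWK/PhJ than in C57BL/6J (log2 0.84, adjusted p = 0.00542), whereas the WSB/EiJ difference from C57BL/6J lost its call (log2 0.47, adjusted p = 0.134). The WSB/EiJ call was also lost without C57BL/6J replicate 1 (0.085) or WSB/EiJ replicate 4 (0.0762).

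Against C57BL/6J, the reference strain, few of the 6 genes differed in any single strain. These 8 comparisons share the 3 C57BL/6J libraries and are therefore not independent of each other. In CAST/EiJ 2 of 6 passed, beside 38.0% of all tested genes: Cyp1a1 rose (log2 4.36 ± 0.48, SE, adjusted p = 1.13e-07) and Cyp1a2 fell (log2 -1.30 ± 0.24, adjusted p = 0.000156). In WSB/EiJ 2 of 6 passed, beside 13.6%: Ahr fell (log2 -1.10 ± 0.21, adjusted p = 0.000445) and Nqo1 rose (log2 0.64 ± 0.18, adjusted p = 0.0196).

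In A/J, beside 7.84% of all genes, Ahr fell (log2 -0.79 ± 0.21, adjusted p = 0.0144), a call lost without C57BL/6J replicate 1 (0.0503) or replicate 2 (0.0863) or A/J replicate 1 (0.0955), and in a fit of the 6 libraries of both strains alone (0.072). In PWK/PhJ, beside 26.2%, Nqo1 rose (log2 0.84 ± 0.18, adjusted p = 0.0012). In NZO/HlLtJ, beside 29.3%, Arnt rose as given above (log2 0.44 ± 0.16). None of the 6 passed in 129S1/SvImJ, DBA/2J or NOD/ShiLtJ by edgeR or by DESeq2, where 20.9%, 9.06% and 15.9% of all genes did. At an unadjusted p below 0.05 the counts there were 0, 1 (Ahr) and 1 (Tiparp) of 6, beside 36.3%, 21.1% and 30.7% of all genes.

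**Figure D4:**
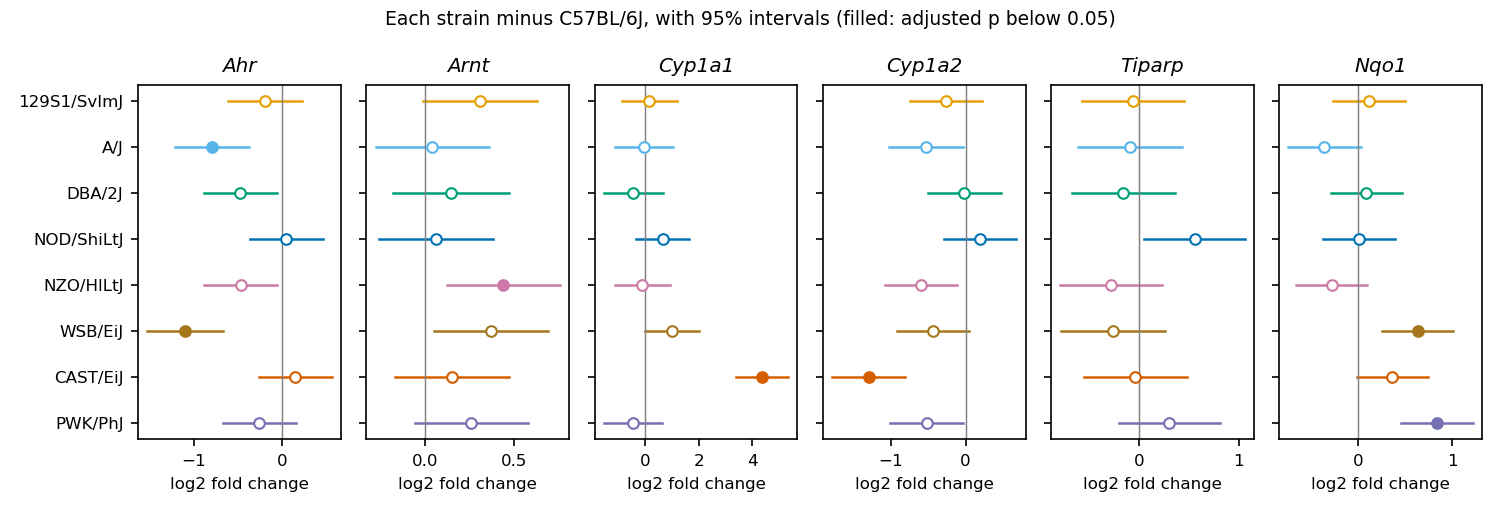
Log2 fold change of each strain minus C57BL/6J for the 6 tested genes, from edgeR, with 95% intervals (each panel has its own x axis); filled points passed at an adjusted p below 0.05. Cyp1a1 in CAST/EiJ (4.36) lies outside the range of all other points, and Cyp1a2 in the same strain is at -1.30.

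Over all 36 pairs of strains and 6 genes, 53 of 216 tests passed (24.5%), beside 23.4% over all tested genes, and the libraries of the pair did not overlap in 75 (34.7%, beside 38.1%). By gene the calls were 15 for Nqo1, 14 for Ahr, 11 for Cyp1a2, 9 for Cyp1a1, and 2 each for Arnt and Tiparp. As a group the genes thus differed between strains about as often as any expressed gene. Among single members Cyp1a1 had the widest log2 range, with 4.72% of tested genes wider. The gap of Nqo1 between wild-derived and laboratory strains, read off after the values were seen, was found in 0.173% of tested genes.

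The strains known for a low-affinity receptor, 129S1/SvImJ and DBA/2J, were read against those known for high affinity, C57BL/6J and A/J, pair by pair. Of 24 tests (6 genes, 4 pairs) 1 passed: Ahr was lower in A/J than in 129S1/SvImJ (log2 -0.60 ± 0.20, adjusted p = 0.031), beside 28.6% of all genes called in that pair. In the other 3 pairs, 20.9% (129S1/SvImJ against C57BL/6J), 9.06% (DBA/2J against C57BL/6J) and 10.9% (DBA/2J against A/J) of all genes were called. The Ahr call was lost with the Kupffer and endothelial marker levels as covariates (log2 -0.58, adjusted p = 0.2) and in a fit of the 6 libraries of both strains alone (log2 -0.60, adjusted p = 0.0541), and also without 129S1/SvImJ replicate 2 (0.156) or replicate 3 (0.0574), or without A/J replicate 1 (0.122) or replicate 2 (0.0578).

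For the targets the intervals show what sizes remain possible. Cyp1a1 in DBA/2J minus C57BL/6J was -0.45 on the log2 scale, with a 95% interval of -1.55 to 0.65 and an adjusted p of 0.713, from 1 to 11 counts per library. Cyp1a2 in the same pair was -0.02, with an interval of -0.51 to 0.47 and an adjusted p of 0.987. Both genes are the classical test of the allele in animals given a ligand, which the labels do not name here.

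Other genes that the receptor is known to induce were taken as a list of 16. Of these 14 were tested and all 14 passed the test between strains, beside 74.2% of all tested genes, with a median log2 range of 1.83 beside 0.94 over all tested genes; Cyp1b1 and Aldh3a1, inducible in many tissues, were too low to test (strain means of at most 0.0428 CPM). They did not move in 1 direction. In CAST/EiJ against C57BL/6J, 4 rose (Ugdh, Gsta1, Gsta2 and Fmo2), beside 18.4% of all genes, and 3 fell, Ugt1a6a and Xdh among them, beside 19.7%. Here the median over the 14 was -0.06 on the log2 scale. Xdh, which encodes xanthine dehydrogenase, was lower than in C57BL/6J in 6 of the 8 strains.

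The largest ranges in this list were those of Gsta1 and Gsta2. Gsta2, a glutathione transferase, had a mean of 104 ± 7.53 CPM in CAST/EiJ and 103 ± 22.8 CPM in PWK/PhJ against 18.7 ± 1.49 CPM in C57BL/6J (log2 2.48 ± 0.35, adjusted p = 5.31e-06, and 2.47 ± 0.35, adjusted p = 8.07e-06), and was lowest in A/J at 8.05 ± 2.75 CPM. Its neighbour in sequence Gsta1 was highest in WSB/EiJ, where the libraries ran from 9.91 to 67.3 CPM, followed by CAST/EiJ at 8.71 ± 1.08 CPM. Counts of both were not whole in any library, so reads may be split between these near-identical copies.

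The glucuronosyltransferases Ugt1a6a and Ugt1a6b share exons and their counts may be split. Both were highest in C57BL/6J, at 201 ± 51.3 and 170 ± 35.5 CPM, and both were lower in DBA/2J, NZO/HlLtJ, WSB/EiJ and PWK/PhJ by the test. In CAST/EiJ Ugt1a6a was lower (66.8 ± 20.6 CPM, adjusted p = 8.57e-05) while Ugt1a6b held 150 ± 17.3 CPM and did not pass. Slc46a3, a lysosomal transporter, was highest in WSB/EiJ, at 148 ± 12.5 CPM against 41.4 ± 13.2 CPM in C57BL/6J (log2 1.84 ± 0.23, adjusted p = 2.62e-06).

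**Figure D5:**
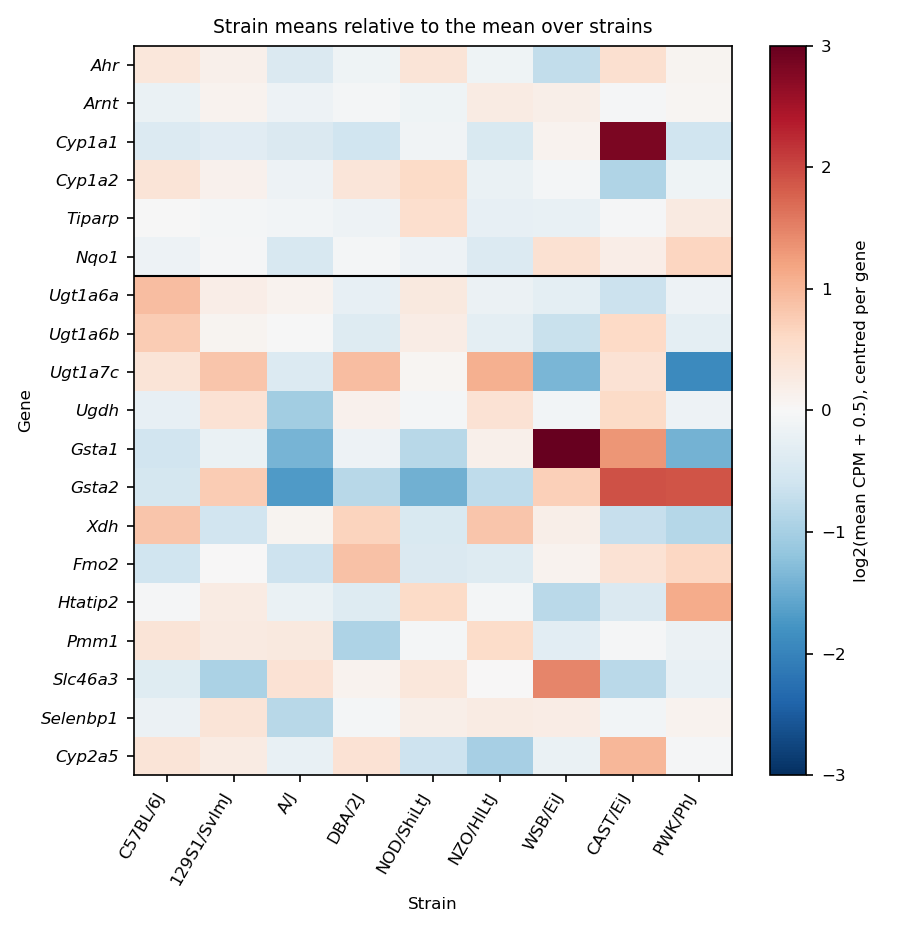
Strain means of the 6 tested genes (above the line) and of other tested targets (below it) on log2(mean CPM + 0.5), centred on each gene's mean over the 9 strains; red is above and blue below that mean, and the colour scale ends at 3 on either side. Cyp1a1 in CAST/EiJ and Gsta1 in WSB/EiJ are the darkest red cells.

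The next lists hold genes that act with the receptor or beside it, and their counts are read against the same 74.2% of all tested genes and median log2 range of 0.94. Of 8 genes of its cytoplasmic complex and its ubiquitin ligase 4 passed, with a median log2 range of 0.6. Src, a kinase found in the complex, was highest in NOD/ShiLtJ (3.04 ± 0.726 CPM) and lowest in PWK/PhJ (0.330 ± 0.0493 CPM). Hsp90aa1, the inducible HSP90 chaperone, ranged from 89.5 ± 23.4 CPM in 129S1/SvImJ to 240 ± 35.7 CPM in DBA/2J, and Rbx1, a ligase subunit, was highest in CAST/EiJ (20.1 ± 1.84 CPM). Of 10 transcriptional coregulators 4 passed, with a median range of 0.5; among those with a mean of at least 1 CPM the widest was that of Nrip1, a corepressor, 2.26-fold higher in NZO/HlLtJ than in DBA/2J.

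A list of 11 relatives of the receptor and of ARNT, Per1, Per2 and Per3 among them, passed in 7 of its 9 tested genes (77.8%, near the 74.2% of all genes). Per2 was highest in CAST/EiJ (13.2 ± 5.77 CPM) and lowest in PWK/PhJ (0.899 ± 0.154 CPM). Npas2 ranged from 1.63 ± 1.21 CPM in A/J to 12.0 ± 1.59 CPM in NZO/HlLtJ, and Per3 from 1.29 ± 0.336 CPM in NOD/ShiLtJ to 10.1 ± 11.1 CPM in A/J. The labels used here give no hour of collection.

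The tryptophan and kynurenine pathway, whose products include ligands of the receptor, passed in 9 of 11 tested genes of 12 (81.8%, beside 74.2% of all genes). Acmsd, which encodes the enzyme that steers the pathway away from NAD, was highest in CAST/EiJ at 78.5 ± 27.2 CPM, against 8.30 CPM in C57BL/6J (log2 3.24 ± 0.42, adjusted p = 1.54e-06). Afmid, the formamidase that makes kynurenine, was lowest in CAST/EiJ at 32.4 ± 4.37 CPM, against 74.8 CPM in C57BL/6J (log2 -1.21 ± 0.16, adjusted p = 3.12e-06). Qprt, a later enzyme on the way to NAD, was lowest in A/J (35.98 ± 2.51 CPM) and highest in DBA/2J (112 ± 15.1 CPM).

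The NRF2 pathway, the other input to Nqo1, passed in 9 of 11 tested genes of 12 (81.8%, beside 74.2% of all genes), with a median log2 range of 1.05 beside 0.94. Their highest strains differed. Me1, which encodes malic enzyme, was highest in PWK/PhJ like Nqo1 (280 ± 99.9 CPM) and lowest in A/J (72.6 ± 19.0 CPM). Hmox1, which encodes heme oxygenase, was highest in A/J (13.2 ± 2.61 CPM) and lowest in 129S1/SvImJ (3.65 ± 1.04 CPM), and Gclm, a subunit of glutathione synthesis, was highest in 129S1/SvImJ (181 ± 30.2 CPM). In WSB/EiJ against C57BL/6J, where Nqo1 rose, 1 of the 11 rose (Nfe2l2), beside 6.88% of all genes, and 1 fell (Gclc), beside 6.76%. In PWK/PhJ, where Nqo1 also rose, 3 of the 11 rose (Keap1, Gsr and Me1), beside 12.5%.

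Zonation genes passed in 8 of 10 pericentral and 10 of 10 periportal genes, beside 74.2% of all genes. Oat, a pericentral aminotransferase, was highest in CAST/EiJ (1189 ± 11.1 CPM) and lowest in WSB/EiJ (150 ± 20.8 CPM), and Glul, the pericentral glutamine synthetase, was likewise highest in CAST/EiJ (425 ± 218 CPM) and lowest in WSB/EiJ (92.6 ± 32.3 CPM). Cyp2e1 and Rhbg, also pericentral, were at their lowest strain means in CAST/EiJ (4182 and 2.55 CPM). Lhpp was highest in NZO/HlLtJ (31.0 ± 5.71 CPM) and lowest in PWK/PhJ (7.10 ± 3.32 CPM). Among periportal genes Pck1 was highest in WSB/EiJ (2426 ± 648 CPM) and Cdh1 and Hal in PWK/PhJ (86.1 ± 24.9 and 785 ± 51.5 CPM). Of 9 tested immediate early genes, which mark handling of cells, 2 passed, beside 74.2% of all genes. These were Egr1 and Fos, both highest in PWK/PhJ, at 59.0 ± 57.3 and 4.73 ± 4.15 CPM. The 10 genes of this list summed to 173, 241 and 42.8 CPM in the PWK/PhJ libraries, so libraries of 1 strain could differ widely.

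The genes most like each member across the 9 strain means were picked by Pearson correlation of log2(CPM + 0.5) among 10652 genes. With so few points high values are common, and they share libraries and strain relatedness. Nearest to Ahr were Zswim3 (0.97), Dmwd (0.93) and Bmf (0.90), and nearest to Cyp1a2 were Ndufaf2 (0.94), Fam98c (0.93) and Pcyt2 (0.92). Nearest to Cyp1a1 were Gsdma3 (0.98), Rps12-ps10 (0.98) and Rps15-ps2 (0.98), all of them highest in CAST/EiJ.

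For Nqo1 the nearest were Tmem79 (0.95), Elmo1 (0.94) and Acp6 (0.93), for Arnt they were Ap1b1 (0.98), Mettl4 (0.98) and Trdmt1 (0.93), and for Tiparp they were Ptk7 (0.92), Agap3 (0.92) and Slc9a3r2 (0.90). No member was among the 3 genes nearest to another member. The closest pair within the group was Ahr and Tiparp, at 0.56, and 954 genes were more like Ahr than Tiparp was.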

How the data were processed

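RNA from hepatocytes of 9 strains was sequenced from polyA libraries (27 libraries), per the labels' protocols. The deposited table holds estimated counts per Ensembl gene and library, of which 14.7% were not whole; the authors' aligner, counter and any use of strain genomes are not given in the sources used here. The submitters' processing notes name FastQC 0.11.5 and DESeq2, with no role. Gene symbols and positions came from GENCODE M21 (42462 of 43346 IDs matched).

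Counts were rounded. Genes were filtered with edgeR's filterByExpr, scaled by the trimmed mean of M-values (factors 0.722 to 1.23) and fitted over all 27 libraries with strain as the only term (edgeR 4.0.16, R 4.3.3, glmQLFit and glmQLFTest). P-values were Benjamini-Hochberg adjusted over the 14482 tested genes within each comparison. CPM used the scaled totals (17015932 to 35078483 counts before scaling). Intervals cover 95% and come from the fit. A change was called at an adjusted p below 0.05. The fit was tested on simulated counts with known changes.

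The members, the pathway and marker lists, and the rules for naming genes were chosen with earlier results of these data known. Named genes are the members, up to 3 called genes per list with the widest log2 range at a mean of at least 1 CPM, and the 3 most similar genes per member (predicted and Rik genes passed over). Genes of the target list beyond these 3 (Ugdh, Fmo2, Xdh, Ugt1a6a, Ugt1a6b, Slc46a3, Cyp1b1, Aldh3a1) of the NRF2 list (Nfe2l2, Gclc, Keap1, Gsr) and of the pericentral list (Cyp2e1, Lgr5, Slc1a2, Rhbg) were named after their values were seen. Alternatives were DESeq2 1.42.0, other size factors, other filters, unrounded counts, a GC correction, cell-marker covariates, a replicate block, fits of 2 strains alone, and each library left out. Libraries of 1 strain differed by far more than sampling noise (chi-square per degree of freedom 24.4 to 135), so none was counted as a repeat. The values of 1 gene of the target list are not reported here.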

Additional observations from a re-analysis of the deposited data

How the results depend on the processing

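No direction reversed under any alternative. Of the 53 calls between pairs of strains, 26 held under every alternative and with each library left out. DESeq2, median-of-ratios size factors, a minimum mean of 10 counts and unrounded counts lost none of the 53, removing the GC trend lost 2, no filter lost 5, fits of the 6 libraries of 2 strains lost 6, and Kupffer and endothelial covariates lost 13. Over all genes the strain effect was called for 10746 in the reported fit, 11445 with DESeq2 and 11042 of 23822 with no filter.

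The counts of members called against C57BL/6J changed in 3 strains under other settings. With 1 library left out, the counts were 0 to 1 in A/J, 0 to 2 in NZO/HlLtJ, 1 to 2 in WSB/EiJ, 1 to 2 in PWK/PhJ and 2 in CAST/EiJ; called pairs in all were 42 to 56, with 0 to 4 for Arnt and 0 to 5 for Tiparp, members with a strain effect 4 to 6, and immediate early genes 0 to 5. For A/J (1 reported) the count was 0 in the fit of 6 libraries. For NZO/HlLtJ (1 reported) it was 2 with DESeq2, 0 with no filter and 0 with the covariates. For WSB/EiJ (2 reported) it was 1 with the covariates. Called coregulators fell from 4 to 2 with the covariates, and called immediate early genes were 2 as reported, 4 with DESeq2, 7 with no filter and 4 with the covariates. With library totals alone, Ahr was 36.6 CPM in CAST/EiJ (31.8 reported) and 10.7 in WSB/EiJ (13.3), Arnt 30.5 in NZO/HlLtJ (25.4) and Tiparp 4.34 in NZO/HlLtJ (3.61). The cause of these changes was not tested.

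Replicate numbers were not taken as pairs. Over all tested genes, same-numbered libraries of different strains correlated at -0.401 to 0.357 in their deviations (76 pairs, median 0.023). Differently numbered ones correlated at -0.562 to 0.472 (248 pairs, median 0.001), and 9 of 27 libraries correlated best with their own number. The summed immediate early genes were highest in replicate 1 in C57BL/6J, 129S1/SvImJ, A/J, NOD/ShiLtJ, NZO/HlLtJ and CAST/EiJ, but not in PWK/PhJ. Whether libraries of 1 number were handled together was not tested. With the replicate number as a block, 11 of the 53 pair calls were lost. Of these, 5 were Cyp1a2 calls of CAST/EiJ, against 129S1/SvImJ, A/J, NZO/HlLtJ, WSB/EiJ and PWK/PhJ (adjusted p 0.0683 to 0.3). Under the block the adjusted p of the Tiparp strain effect was 0.0828, and NZO/HlLtJ had 2 members called, as it did with block and GC correction together. All-gene calls were 9350 under the block.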
